A study of Mus musculus with 3 samples.

Results

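G6pdx, Pgd, Taldo1, Tkt and Me1 are 5 genes whose enzymes supply NADPH or run the pentose phosphate pathway, and peaks of the transcription factor Nrf2 were looked up around each of them. The members were taken as every peak that overlapped a fixed window of 120 to 230 kb around each gene in the mm9 build, with no minimum set on the score. The genes themselves were chosen with earlier results of these lists known. The windows held 3 of the 2892 peaks listed for replicate 1 and 4 of the 3593 listed for replicate 2. Of the 1750 regions where the lists overlapped, 3 lay in these windows, at G6pdx, Pgd and Tkt. The windows of Taldo1 and Me1 held 0 peaks in both lists.

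The peaks come from chromatin immunoprecipitation and sequencing (ChIP-seq) in wild-type C2C12, a line of mouse muscle precursor cells that stop dividing in low serum and form multinucleated myotubes. The labels name 2 ChIP replicates and 1 input, all from myotubes that had differentiated for 72 h and then received CDDO-Im, a synthetic triterpenoid that activates Nrf2, at 100 nmol/L for 3 h. No untreated sample is among them, so the lists show where Nrf2 signal lay in treated cells and not what the compound changed. Nothing says that the replicates were separate cultures. Peak lists hold no expression values, so the myotube identity of the cells was not checked against marker genes.

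NADPH is the reducing agent that keeps glutathione and thioredoxin in their working state and that fatty acid synthesis consumes. The oxidative branch of the pentose phosphate pathway makes it from glucose 6-phosphate. The non-oxidative branch links the resulting pentoses back to glycolysis, and cytosolic malic enzyme makes NADPH from malate. Nrf2 is known to act on genes of all these steps in several tissues. It binds as a partner of small Maf proteins to the antioxidant response element, whose core is written TGACNNNGC, where N is any base.

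Sequences upstream of the 3 genes with a region in both lists are shown first, because they are the stretches where a core next to the gene would be seen. They are the 250 bases before the outermost gene start in RefSeq on GRCm38.p6, read 5′ to 3′ on the strand of the gene, with a core in capitals. G6pdx lies at chrX:74428881-74429130 on the minus strand, Pgd at chr4:149166706-149166955 on the minus strand, and Tkt at chr14:30548881-30549130 on the plus strand. These positions belong to GRCm38.p6 and cannot be set against the mm9 positions of the peaks, so whether a peak covers any of these stretches was not determined.
G6pdx: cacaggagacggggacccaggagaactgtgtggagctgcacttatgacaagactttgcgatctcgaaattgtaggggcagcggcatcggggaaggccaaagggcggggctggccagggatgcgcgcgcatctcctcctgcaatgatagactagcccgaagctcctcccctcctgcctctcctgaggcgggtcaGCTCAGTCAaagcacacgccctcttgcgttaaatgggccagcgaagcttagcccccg
Pgd: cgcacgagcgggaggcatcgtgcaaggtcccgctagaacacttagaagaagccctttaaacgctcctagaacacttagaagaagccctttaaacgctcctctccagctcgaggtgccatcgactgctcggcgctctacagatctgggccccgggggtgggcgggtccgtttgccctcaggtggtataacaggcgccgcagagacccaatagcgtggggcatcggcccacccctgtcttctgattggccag
Tkt: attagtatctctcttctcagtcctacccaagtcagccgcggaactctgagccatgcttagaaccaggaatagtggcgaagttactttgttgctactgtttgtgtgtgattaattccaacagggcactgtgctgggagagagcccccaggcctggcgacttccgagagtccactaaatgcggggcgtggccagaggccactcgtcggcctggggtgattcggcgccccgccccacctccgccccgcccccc

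The G6pdx stretch held 1 core, from 57 to 49 bases before the gene start, which reads TGACTGAGC on the opposite strand. The stretches of Pgd and Tkt held no core. A further pair of cores lay at or after a start and is shown with 10 bases on each side. The core of Me1, TGACTCAGC, ran from 6 bases before its outermost start to the base numbered 3 from that start (chr9:86695902-86695930, minus strand, GRCm38.p6). The core of Pgd, TGACATTGC, ran from base 4 to base 12 after an inner start (chr4:149166061-149166089, minus strand, GRCm38.p6).
Me1: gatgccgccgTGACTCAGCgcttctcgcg
Pgd, inner start: atttcagagcTGACATTGCactgatcgga

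In these promoters, which run from 250 bases before a listed start to 50 bases after it, 3 of the 5 members held the core on either strand, and 14.0% of the 27025 genes of the table did. With the outermost start alone it was 2 of 5, G6pdx and Me1, against 12.4% of the genes. When the core had to be preceded by an A or a G, only Me1 kept a match. A match describes letters and is no bound site. Me1 had a core and 0 peaks, and Tkt had peaks in both lists and no core in this stretch.

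G6pdx encodes glucose-6-phosphate dehydrogenase, the enzyme of the first and committed step of the oxidative branch. Its window, chrX:71600000-71730000 in mm9, held 1 peak in each list. The peak scored 201 in replicate 1 and 495 in replicate 2. The score is the authors' deposited value for each peak and was taken to be the peak caller's p-value as its log10 times -10, so that a higher score stands for a peak less like the background. It stood at rank 282 of 2892 in replicate 1 and at rank 175 of 3593 in replicate 2, so that 90.2% and 95.1% of the lists scored lower. The listed stretches were chrX:71670407-71671008 in replicate 1 and chrX:71670391-71671120 in replicate 2. No other peak of either list lay within 100 kb. The next one lay 426 kb away between centres in both lists. Ikbkg, which encodes a subunit of the kinase complex that activates NF-kappa B, overlaps G6pdx in the GRCm38.p6 table, and a peak in this window cannot be assigned to either gene from these lists.

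Pgd encodes 6-phosphogluconate dehydrogenase, which carries out the other NADPH-producing step of the oxidative branch. Its window, chr4:148470000-148590000, held the highest-scoring peak of the 5 windows in each list. The score was 363 in replicate 1 and 979 in replicate 2, at ranks 78 and 46. Lower scores were carried by 97.3% of the first list and 98.7% of the second. The listed stretches were chr4:148544628-148545277 and chr4:148544601-148545392. No other peak lay within 100 kb. The nearest was 235 kb away in replicate 1, with a score of 56.5, and 610 kb away in replicate 2, with a score of 155, and these were different positions. In the GRCm38.p6 table the protein-coding neighbours of Pgd are Cenps and Kif1b.

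Tkt encodes transketolase, a transfer enzyme of the non-oxidative branch. Its window, chr14:31310000-31440000, held 1 peak in replicate 1 and 2 in replicate 2. The peak found in both lists scored 276 in replicate 1 and 840 in replicate 2, at ranks 143 and 65, above 95.1% and 98.2% of the peaks of these lists. It spanned chr14:31377412-31378075 and chr14:31377316-31378286. On chromosome 14 it was the highest-scoring of the 120 peaks of replicate 2 and the fourth of the 58 of replicate 1. The other peak, listed for replicate 2 only at chr14:31310778-31311311, scored 84.9, at rank 1897, close to the median of 88.7 of that list. It began 778 bp inside the window edge and lay 66.8 kb from the shared one. The neighbours of Tkt in the GRCm38.p6 table are Dcp1a and Prkcd.

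Taldo1 encodes transaldolase, the other transfer enzyme of the non-oxidative branch. No peak of either list overlapped its window, chr7:148530000-148650000. The nearest peak of replicate 2 began 4477 bp beyond the window, at chr7:148654477-148655242. Its score of 53.1, rank 3294 of 3593, was near the lowest score of the list, which is 50, and replicate 1 listed no peak there. The nearest peak of replicate 1 was 7076 kb below the window. So the window edge decides whether Taldo1 counts as having a peak in replicate 2, and not in replicate 1.

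Me1 encodes cytosolic malic enzyme. No peak of either list overlapped its window, chr9:86420000-86650000, which at 230 kb was the longest of the 5. Below the window, the nearest peak lay 455 kb away in both replicates. It was listed at chr9:85964500-85965055 in replicate 1 and chr9:85964525-85965063 in replicate 2, with scores of 113 and 349. Above the window the nearest peak was 1312 kb away in replicate 1 and 245 kb away in replicate 2. Neither list goes below a score of 50, and depth is unknown, so the absence of a listed peak at Taldo1 and Me1 does not show that Nrf2 was absent there.

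**Figure D1:**
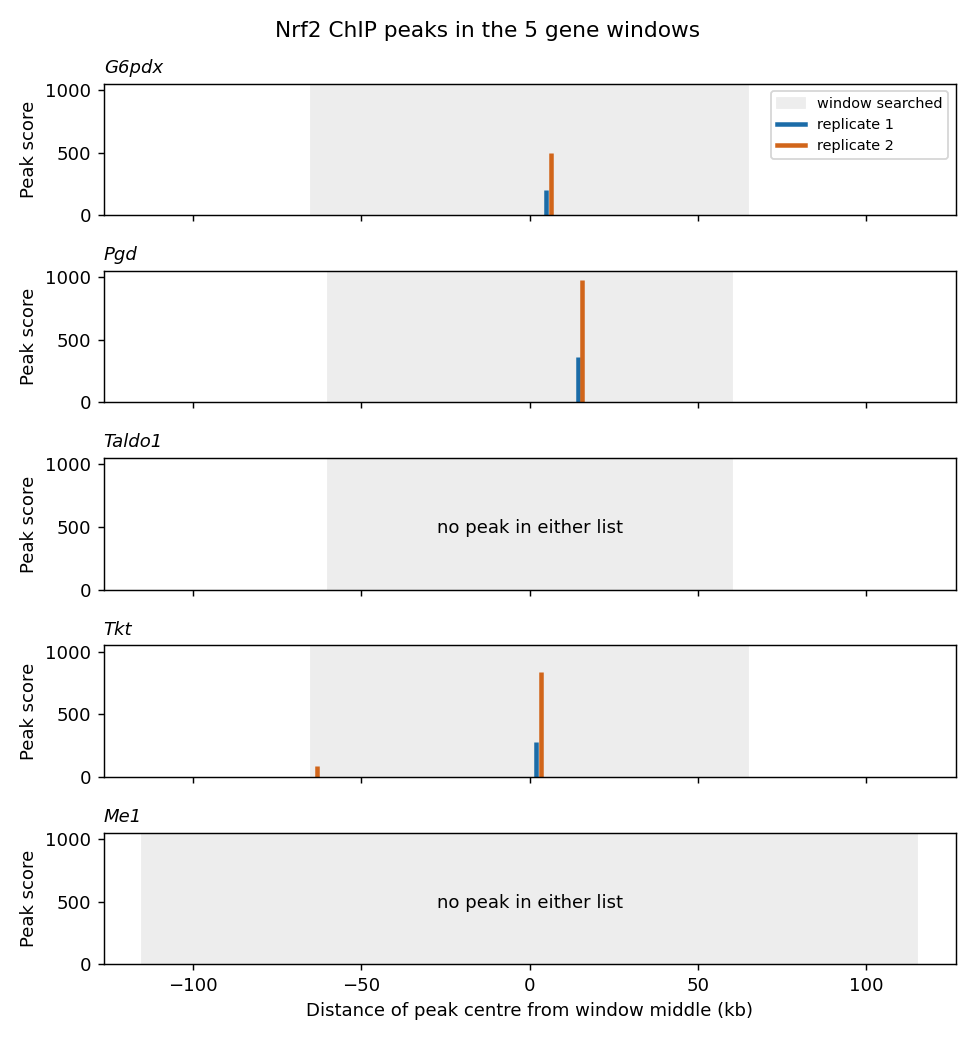
Peaks in the mm9 windows of the 5 genes, with the distance of the peak centre from the middle of the window (kb) on the x axis and the authors' peak score on the y axis; the lines of the replicates are drawn side by side, and grey marks the window. G6pdx, Pgd and Tkt have 1 position in common to both lists, with scores from 201 to 979, and Taldo1 and Me1 have 0 peaks.

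A peak somewhere in such a window was uncommon in either list. When the placed chromosomes were divided into 17891 adjoining windows of 146 kb, the mean length of the 5, a peak lay in 7.68% of them in replicate 1 and in 12.0% in replicate 2, against 3 of the 5 genes in each list. A region found in both lists lay in 5.74% of the windows, against 3 of 5. A region with a score of at least 200 in both lists lay in 0.984% of them, against the same 3 of 5, although G6pdx passed that score in replicate 1 only narrowly (201). The genome windows include stretches without genes, and the 5 genes were not chosen blind to these lists, so the counts are a description and no test was made.

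The chromosomes of these genes were unequal in this respect. Windows with a replicate 1 peak made up 5.62% of the windows of chromosome X, 7.82% of those of chromosome 4 and 4.38% of those of chromosome 14. On the chromosomes of the genes without a peak the share was 3.55% (chromosome 7, Taldo1) and 3.54% (chromosome 9, Me1). In replicate 2 the shares were 7.02% on chromosome X, 11.6% on chromosome 4 and 9.59% on chromosome 14. They were 6.33% on chromosome 7 and 9.33% on chromosome 9. So chromosome 9, that of Me1, was lowest in replicate 1 but above chromosome X in replicate 2. A region with both scores of at least 200 lay in 0.473% of the windows of chromosome 14 and in 1.49% of those of chromosome X, the lowest and the highest of the 5 chromosomes. On chromosome 9 this share was 0.945%.

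**Figure D2:**
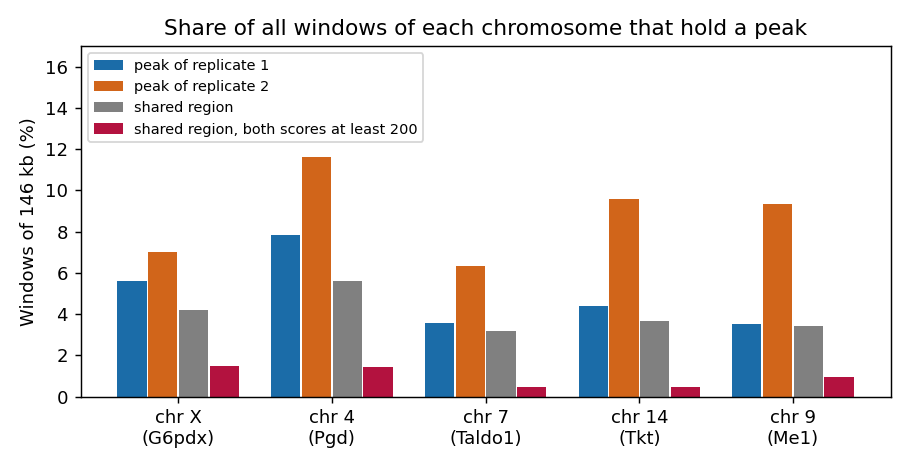
Share of all windows of 146 kb (%, y axis) that hold a peak or a shared region, for each of the chromosomes of the 5 genes (x axis); bars stand for the lists and for the regions common to both. The share with a high score in both lists is at most 1.49%, on chromosome X.

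The 3 regions were high in the order of all regions common to both lists. Ordered by the worse of its ranks in the replicates, the region of Pgd was number 49 of 1750, that of Tkt number 83 and that of G6pdx number 167. A score of at least 200 in both lists was reached by 3 of the 3 and by 13.1% of all 1750, a description of genes whose choice was not independent of these lists. Within their chromosomes, Pgd was number 8 of 149 such regions on chromosome 4, Tkt number 4 of 36 on chromosome 14 and G6pdx number 17 of 287 on chromosome X. The scores rose in the same order in both lists, from G6pdx to Tkt to Pgd. With 1 value per list there is no error on a score, so this order has no test.

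**Figure D3:**
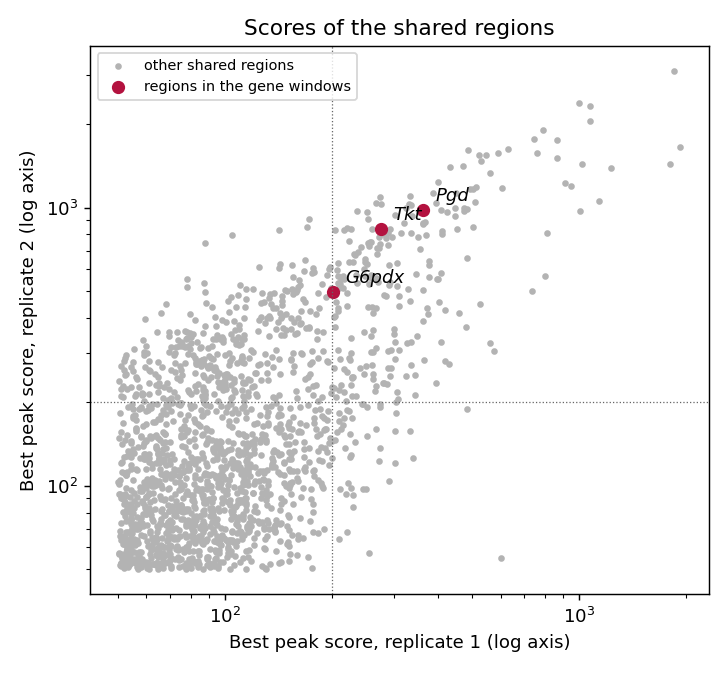
Best score in replicate 1 (x axis) against that in replicate 2 (y axis), both on log axes, for the 1750 regions common to both lists; dotted lines mark a score of 200. G6pdx (201 and 495), Tkt (276 and 840) and Pgd (363 and 979) lie in the upper right field, with G6pdx at its left edge.

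All 3 regions lay outside crowded stretches. Each had fewer than 2 other peaks of the same list within 100 kb in both lists, as did 44.9% of all regions common to both. On chromosome X, 38 regions scored at least 200 in both lists and 3 of these were uncrowded, the one at G6pdx included. On chromosome 4 this was 8 of 21, with the one at Pgd, and on chromosome 14 it was 4 of 4, with the one at Tkt.

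At all 3 genes the peak of replicate 2 was wider than that of replicate 1. Peaks of replicate 1 were 602 bp wide at G6pdx, 650 bp at Pgd and 664 bp at Tkt, against a median of 456 bp over that list. Those of replicate 2 were 730, 792 and 971 bp wide, against a median of 612 bp. Both medians cover peaks of all scores. The widths were not compared with those of peaks of similar score, so greater width cannot be told apart from higher score here. At each gene the peak of replicate 1 lay wholly within that of replicate 2, which was so for 63.7% of the 1613 shared regions with 1 peak per list and for 71.1% of the 187 of them with both scores of at least 200. The peak of replicate 2 reached 16 bp further at the lower end and 112 bp further at the upper end at G6pdx, 27 and 115 bp at Pgd, and 96 and 211 bp at Tkt. Its centre lay 48.0 bp higher at G6pdx, 44.0 bp higher at Pgd and 57.5 bp higher at Tkt. Over the 1613 regions the median distance between centres was 43 bp, with quartiles of 16.5 and 86 bp, and all 3 genes fell between these quartiles. The ratio of widths was 1.21, 1.22 and 1.46, against a median of 1.30 over the 1613 regions, with quartiles of 1.08 and 1.56. Over the 187 regions with both scores of at least 200 the median was 1.23, with quartiles of 1.09 and 1.37. G6pdx and Pgd fell between these last quartiles, and Tkt lay above the upper one.

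**Figure D4:**
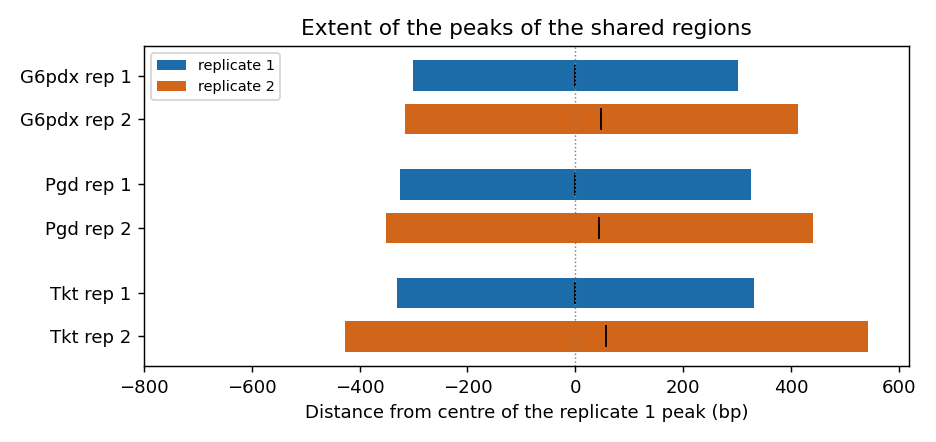
Listed extent of the peaks at G6pdx, Pgd and Tkt in each replicate, as the distance from the centre of the replicate 1 peak (bp, x axis); black ticks mark centres. Each peak of replicate 2 is wider than that of replicate 1 (730 against 602 bp at G6pdx) and its centre lies 44.0 to 57.5 bp to the right.

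By branch of the pathway, the windows of the 2 oxidative-branch members looked up, G6pdx and Pgd, held a region in both lists. So did the window of 1 of the 2 non-oxidative members looked up, Tkt, and the window of Me1 held none. Over all windows of 146 kb the share was 5.74%, and counts of 1 or 2 genes show no difference between branches. Distances to gene starts were not computed, so the regions at G6pdx, Pgd and Tkt cannot be assigned to a gene from these lists. At G6pdx, Ikbkg also overlaps the gene in the GRCm38.p6 table. A list of 20 further genes of NADPH supply and the pentose phosphate pathway, from H6pd and Pgls to Idh1 and Nadk, could be read only for promoter letters, since peaks near them need an mm9 annotation. Of the 16 with a promoter in the table, 1 held the core, Tktl1, which encodes a transketolase-like protein, against 14.0% of all genes.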

How the data were processed

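Peak lists of the 2 Nrf2 ChIP samples were read; reads of the input were not analysed here. Per the submitters' processing notes, bcl2fastq 2.15.0, Bowtie2, MACS 1.4 and the mm9 build were used, without roles or settings. Use of the input as a control: not given in the sources used here. The deposited score of each peak was taken to be the caller's p-value as its log10 times -10, the form MACS 1.4 writes, and was used only within a list. Depth is unknown.

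An overlap of 1 bp or more made peaks of different lists shared, and chains of such peaks were merged. Positions count from 1. All 5 genes are named, and the genes, windows and lists were chosen with earlier results of these data known. Distances to gene starts needed an mm9 annotation and were not computed, nor were the windows checked against one. No coordinates were converted. Promoters come from RefSeq (GRCm38.p6), where 5 of 5 members and 16 of 20 further genes matched by symbol. The overlap and motif searches were tested on simulated data. Alternatives were score minimums, other overlap rules, other windows, leaving out a replicate and a longer motif. Scripts ran in Python 3.11.15 with SciPy 1.17.1 and NumPy 2.4.6, and figures were drawn with matplotlib 3.10.9.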

Additional observations from a re-analysis of the deposited data

How the results depend on the processing

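Of 34 alternative values, 29 stayed within 1.5 times the main count or within the 95% Wilson interval of the main share. The 5 outside these limits were the shares of windows on chromosomes 2 to 19, all lower than the main shares, and the count with the longer core. Genes with a peak in at least 1 list numbered 3 without replicate 1 and 3 without replicate 2. The number of shared regions in the windows was 3 under each of its 6 alternatives. Windows widened by 50 kb on each side added 2 peaks, both in replicate 2, at Taldo1 (score 53.1) and Tkt (64.8), which made 4 genes with a peak there. The shares of windows were also taken on chromosomes 2 to 19 only, with chromosomes 1 and X left out. There, 5.50% of the windows held a peak of replicate 1 and 10.5% a peak of replicate 2. A shared region lay in 4.31% of them, and a shared region with both scores of at least 200 in 0.832%. Members with a promoter that matched the core with 1 base more numbered 1 of 5. The limit to the outermost promoter (2 of 5) was added after seeing the data. No paired analysis was possible because the ChIP samples form 1 group. Without depth, a gene with 0 peaks may lie below the caller's threshold.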
